A study of Mus musculus with 12 samples.

Results

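Gluconeogenesis was followed through 9 genes, read from the tables by gene name among 55416 listed genes per tissue: Pcx, Pck1, Pck2, Fbp1, G6pc (the catalytic subunit of glucose-6-phosphatase), Ldha, Mdh1, Pklr and Ppargc1a. The genes were taken by name, and all 9 genes passed the filter on low values in both tissues. RNA-seq was performed on the liver and on the duodenum, labelled intestine, of male C57BL6/J mice that were 8 weeks old at the start. The CORT group received corticosterone, the main glucocorticoid of rodents, at 40 mg/kg and the Veh group received vehicle, both by daily subcutaneous injection for 8 weeks. Each tissue had 3 CORT and 3 Veh libraries, 12 libraries in all. No genetic change was made in any group, and the libraries were made from whole tissue, in which fewer cells of a type and less RNA per cell cannot be told apart. The labels call the libraries biological replicates and do not say whether a liver and a duodenum with the same number came from the same mouse.

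Gluconeogenesis makes glucose from lactate, amino acids and glycerol, mainly in the liver and the kidney, and the small intestine also holds its enzymes. Pyruvate carboxylase and phosphoenolpyruvate carboxykinase take pyruvate past the step that pyruvate kinase makes irreversible, fructose-1,6-bisphosphatase takes the pathway past phosphofructokinase, and glucose-6-phosphatase releases free glucose. Glucocorticoids, glucagon through cAMP, and insulin are known to act on the transcription of Pck1 and G6pc in hepatocytes. The comparison of CORT with Veh in each tissue asked which of these genes differed after chronic exposure to the hormone.

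Levels are TPM, relative transcript abundances, which are scaled for transcript length and for the total of each library, so levels may be compared between genes. The listed genes of a library summed to between 983327 and 997319 TPM, read depth is not known, and the spread between 3 libraries is the only measure of error. A gene was called changed where limma, fitted over all tested genes of a tissue on log2(TPM + 1), gave a change of more than 1.5-fold at an adjusted p of at most 0.05. Fkbp5, a cochaperone of the glucocorticoid receptor and a known target of the hormone, was at 273, 249 and 221 TPM in the CORT livers and at 7.14, 12.7 and 19.5 TPM in the Veh livers. In the intestine it was at 379, 281 and 252 TPM with CORT and at 14, 8.68 and 23.3 TPM with Veh. Fkbp5 thus separated the groups in both tissues (log2 fold change 4.23 in liver and 4.30 in intestine, the latter 4.32 at an adjusted p of 0.0566 by limma without Veh2 and Veh3). The intestine libraries Veh2 and Veh3 stood apart: 34 pancreatic acinar markers summed to 49609 and 44221 TPM there, 4.97% and 4.44% of the library, against 8008 TPM in Veh1 and 8616 to 10439 TPM in the CORT libraries. Estimates for the 9 genes in intestine, and for the differences between tissues, are therefore also given without both, where Veh1 stands alone and is assumed to vary like the CORT group.

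The promoters of Pcx (called in liver), G6pc (called in intestine) and Ldha (called for its difference between the tissues) are shown because their letters can be set beside the hormone and cAMP motifs known from this pathway. RefSeq windows on GRCm38.p6 matched all 9 genes, and the 250 bases before each start were read. Printed 5′ to 3′ on the gene's strand, the windows are chr19:4510222-4510471 and chr19:4594069-4594318 for the upstream and the downstream start of Pcx, chr11:101367466-101367715 for G6pc and chr7:46845554-46845803 for the upstream start of Ldha, all on the plus strand. Capitals mark matches to any motif searched.
Pcx upstream start: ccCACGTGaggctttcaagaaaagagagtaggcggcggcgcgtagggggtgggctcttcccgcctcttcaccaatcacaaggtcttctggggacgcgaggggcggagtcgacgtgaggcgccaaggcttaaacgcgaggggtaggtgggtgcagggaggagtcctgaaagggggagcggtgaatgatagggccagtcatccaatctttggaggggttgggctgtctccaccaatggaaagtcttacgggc
Pcx downstream start: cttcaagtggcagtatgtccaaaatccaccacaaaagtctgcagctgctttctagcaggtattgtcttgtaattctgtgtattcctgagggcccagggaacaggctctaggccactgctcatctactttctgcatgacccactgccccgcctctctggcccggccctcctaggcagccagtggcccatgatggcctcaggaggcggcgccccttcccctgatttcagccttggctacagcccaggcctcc
G6pc: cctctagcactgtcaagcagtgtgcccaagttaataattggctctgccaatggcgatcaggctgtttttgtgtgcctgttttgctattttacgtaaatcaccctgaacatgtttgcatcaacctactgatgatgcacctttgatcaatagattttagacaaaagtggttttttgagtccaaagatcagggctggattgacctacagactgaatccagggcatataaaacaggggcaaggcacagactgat
Ldha upstream start: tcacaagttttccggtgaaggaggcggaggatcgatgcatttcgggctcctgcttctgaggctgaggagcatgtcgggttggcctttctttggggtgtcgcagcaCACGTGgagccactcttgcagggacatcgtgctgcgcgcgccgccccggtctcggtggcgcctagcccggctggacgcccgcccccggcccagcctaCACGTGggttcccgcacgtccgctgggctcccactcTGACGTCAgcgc

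The motifs were searched on both strands. The cAMP response element TGACGTCA stood at bases -12 to -5 of the Ldha window, counted back from the start, where it contains the shorter core TGACG on each strand. It was found in 1.55% of all 32851 windows. The E-box CACGTG, which basic helix-loop-helix factors bind, stood at -145 to -140 and at -48 to -43 of Ldha and at -248 to -243 of the upstream Pcx window, and in 6.02% of all windows. TGACG alone stood at -90 to -86 of Pck1, at -49 to -45 of Ppargc1a and at -143 to -139 of the downstream Ldha window, against 17.8% of all windows. TGTTCT, the hexamer of the glucocorticoid receptor (16.1% of all windows), the forkhead motif TGTTTAC (3.17%) and the full glucocorticoid response element (0.00913%) matched no window of the 9 genes. The G6pc window held none of the motifs, which says only that these letters are not in these bases.

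In the liver, 1 of the 9 genes, Pcx, passed the test and was higher with CORT, beside 6.92% of all 11699 genes tested. Of those genes, 4.91% were called higher and 2.01% lower. With each library scaled by the median of its ratios the calls were split as 543 higher and 467 lower in place of 575 and 235. The enzymes usually taken to mark hepatic gluconeogenesis, Pck1 and G6pc, varied more among Veh livers than between the group means. The median log2 fold change of the 9 genes was 0.28, against 0.08 over all genes tested, and 8 of the 9 estimates were above 0.

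Pcx (ENSMUSG00000024892), which encodes the mitochondrial enzyme that makes oxaloacetate from pyruvate, was at 346, 374 and 272 TPM in the CORT livers and at 111, 133 and 130 TPM in the Veh livers. Every CORT liver lay above every Veh liver, and the lowest CORT value was above 2 times the highest Veh value. The means were 331 ± 52.7 and 125 ± 11.8 TPM (SD, n = 3), a 2.65-fold difference. On the log2 scale the change was 1.39 ± 0.16 (SE), with a 95% interval of 1.01 to 1.77 and an adjusted p of 0.00609 by limma. Leaving out any 1 of the 6 livers kept the call of Pcx, with estimates from 1.30 to 1.52.

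Ldha (ENSMUSG00000063229), the lactate dehydrogenase subunit that joins lactate to pyruvate, was at 944, 1088 and 885 TPM in the CORT livers and at 537, 698 and 416 TPM in the Veh livers. The groups did not overlap, and the log2 fold change was 0.85 ± 0.21 (SE; adjusted p = 0.0564, limma) and did not pass. It passed with median-ratio scaling (0.75, adjusted p = 0.0352) and without the liver Veh2 (1.03, adjusted p = 0.033).

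Fbp1, the fructose-1,6-bisphosphatase of liver, was at 951, 1144 and 910 TPM with CORT and at 622, 874 and 806 TPM with Veh. Its groups did not overlap either, but the difference was 1.31-fold (log2 0.39, 95% interval -0.02 to 0.80, adjusted p = 0.21, limma). The 3 genes without overlap in the liver, Pcx, Ldha and Fbp1, are 3 of 9, beside 32.2% of all genes tested.

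Pck1 (ENSMUSG00000027513), the cytosolic phosphoenolpyruvate carboxykinase, was at 1362, 772 and 1072 TPM in the CORT livers and at 804, 545 and 1448 TPM in the Veh livers. The highest of all 6 livers was Veh3 and the groups overlapped over most of their range. The log2 fold change was 0.28 with a 95% interval of -0.61 to 1.16 (adjusted p = 0.674, limma), and it was -0.05 without Veh2 and 0.65 without Veh3. The interval holds both a fall and a rise of more than 1.5-fold.

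G6pc (ENSMUSG00000078650) was at 138, 138 and 81.3 TPM in the CORT livers and at 80.3, 31.6 and 121 TPM in the Veh livers. Again Veh3 reached into the CORT range while Veh2 was lowest, and the log2 fold change was 0.77 (95% interval -0.36 to 1.89, adjusted p = 0.357, limma). It was 0.23 without Veh2 and 1.18 without Veh3, and did not pass in either fit. Slc37a4, the transporter that brings glucose-6-phosphate to this enzyme, was at 168, 168 and 150 TPM with CORT and at 88.9, 78.2 and 156 TPM with Veh (log2 0.65, adjusted p = 0.167, limma). As with Pck1 and G6pc, the Veh3 liver held the highest Veh value of Slc37a4.

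Pklr, the liver pyruvate kinase that runs in the glycolytic direction, was at 182, 393 and 57.1 TPM with CORT and at 128, 125 and 329 TPM with Veh. The coefficient of variation was 80.6% among CORT livers, the highest of the 9 genes there, and 60.2% among Veh livers, and the log2 fold change of -0.12 had an interval from -1.78 to 1.54 (adjusted p = 0.932, limma). The ratio of Pck1 to Pklr TPM accordingly ran from 1.97 to 18.8 in CORT livers and from 4.37 to 6.28 in Veh livers.

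Mdh1, the cytosolic malate dehydrogenase that returns oxaloacetate carried out of the mitochondrion as malate, was the steadiest member in liver, at 389, 402 and 395 TPM with CORT and 345, 342 and 391 TPM with Veh (log2 0.14, 95% interval -0.14 to 0.42). Pck2, the mitochondrial carboxykinase, was at 2.31, 2.51 and 2.26 TPM with CORT and 1.09, 4.86 and 1.95 TPM with Veh, and Pck1 made up 99.1% to 99.9% of the summed TPM of both carboxykinases. Ppargc1a, the coactivator PGC-1alpha, was at 1.48, 0.97 and 1.80 TPM with CORT and 0.82, 1.30 and 0.90 TPM with Veh (log2 0.26, adjusted p = 0.484, limma). Both genes were close to the limit of 1 TPM, where log2(TPM + 1) understates a change.

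**Figure D1:**
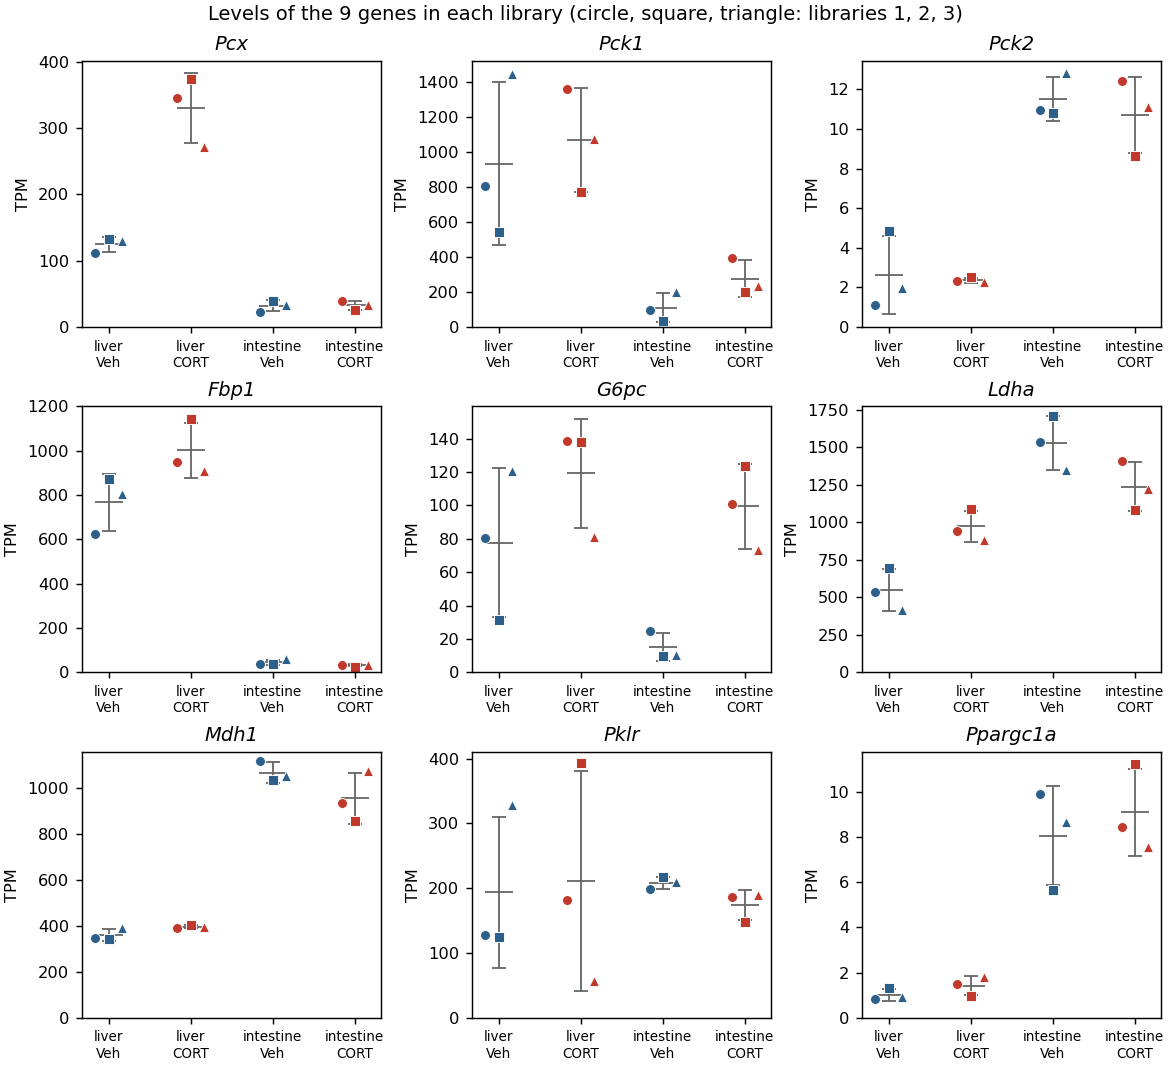
TPM of each of the 9 genes in every library, by tissue and group (circle, square and triangle are libraries 1, 2 and 3, blue Veh, red CORT, bars mean ± SD, n = 3; each panel has its own axis from 0). Pcx in liver and G6pc in intestine are the genes whose CORT points lie well clear of the Veh points, while Pck1, G6pc and Pklr spread widely within the liver groups.

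Liver markers were checked beside these values. Hepatocyte markers such as Alb and Ttr summed to 70023 to 81068 TPM with CORT and 58348 to 98060 TPM with Veh, and overlapped. Alb carried most of that sum, with means of 47518 and 47752 TPM. Of the 7 markers 1, Cyp3a11, was called (3.02-fold, adjusted p = 0.00693, limma), beside 6.92% of all genes tested. Cyp3a11 and Cps1, both higher, and Ahsg, lower at 0.615-fold, did not overlap, 3 of 7 beside 32.2% of all genes tested. Of 8 pericentral hepatocyte markers none was called, and their sum was 5363 to 8296 TPM with CORT against 3010 to 4928 TPM with Veh, while 6 periportal markers, none called, summed to 3594 to 6102 TPM and 3134 to 4907 TPM. Cyp2e1, a cytochrome P450, carried most of the pericentral sum, at 6081, 6988 and 4175 TPM with CORT and at 3499, 2363 and 3662 TPM with Veh. Of the 8 pericentral estimates 5 were above 0 and 3 below, those of Lgr5 (log2 -0.82, with no overlap), Cyp1a2 (-0.51) and Oat (-0.11). The periportal sum hid a split as well, with 2 of the 6 estimates above 0 and 4 below. Cyp2f2 (log2 -0.48) and Hal (-0.63) were lower in every CORT liver, 2 of 6 without overlap, beside 32.2% of all genes tested. The pericentral sum was higher in every CORT liver, as Pcx was, and its part in the Pcx difference was not tested.

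In the intestine, 1 of the 9 genes, G6pc, passed the test and was higher with CORT, beside 2.15% of all 13607 genes tested. Of those genes, 1.23% were called higher and 0.919% lower. Pck1 was higher in its mean but overlapped between the groups, and the other 7 genes had estimates between -0.47 and 0.17 on the log2 scale. The median of the 9 estimates was -0.11, against -0.01 over all genes tested, with 4 above 0 and 5 below.

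G6pc was at 101, 124 and 73.4 TPM in the CORT intestines and at 24.8, 9.84 and 10.6 TPM in the Veh intestines. The means were 99.4 ± 25.2 and 15.1 ± 8.42 TPM (SD, n = 3), a 6.59-fold difference, and no CORT value came near the Veh range. The log2 fold change was 2.73 ± 0.36 (SE), with a 95% interval of 1.88 to 3.58 and an adjusted p of 0.0205 by limma. The CORT intestines overlapped the CORT livers in the level of G6pc, whereas the Veh intestines lay below every liver.

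The call of G6pc depended on the libraries more than its direction did. Without 1 library at a time the estimate stayed between 2.50 and 3.13, with adjusted p-values by limma from 0.00309 to 0.0785, and it was called without CORT3 or Veh1 but not without CORT1, CORT2, Veh2 or Veh3. The call was also lost with the replicate number as a block (adjusted p = 0.0541, limma) and without the filter on low values (0.0681). Without both acinar-rich libraries the log2 fold change was 1.93 and the adjusted p 0.222, and with the acinar genes removed it was 2.70 (adjusted p = 0.0185). For a single gene the exact permutation test of 3 against 3 libraries gave its smallest possible two-sided p, 0.1, for G6pc, Fbp1 and Pklr in intestine and for Pcx, Ldha and Fbp1 in liver.

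Marker sums of other cell types also differed between the intestine groups. The 5 red blood cell markers, none of them called, were each higher in all CORT intestines than in all Veh intestines, and their sum was 366, 706 and 457 TPM with CORT and 247, 119 and 120 TPM with Veh. Over all genes tested in intestine, 26.4% did not overlap between the groups. The 10 absorptive enterocyte markers, none called, summed to 57278 to 65224 TPM with CORT and 33356 to 50442 TPM with Veh. Apoa4, Rbp2 and Fabp1 carried most of that sum. Of the 10 enterocyte estimates 6 were above 0 and 4 below, the latter being Vil1 (0.892-fold), Alpi (0.717-fold), Anpep (0.723-fold) and Sis (0.997-fold). The part of either in the G6pc difference was not tested, and the enterocyte sum of Veh1, 50442 TPM, lay nearest to the CORT libraries. Immune markers, none of 5 called, summed to 243 to 545 TPM with CORT and 818 to 1017 TPM with Veh. All 5 immune estimates were below 0 (median log2 -0.31), and 1 did not overlap, beside 26.4% of all genes tested. The 7 adipocyte markers summed to 221 to 319 TPM with CORT and 141.5 to 157 TPM with Veh. Of 3 tested none was called, 2 estimates were above 0 and 1 below. Smooth muscle sums overlapped (242 to 383 against 370 to 747.5 TPM), and none of 5 markers was called, all with estimates below 0. The part of these sums in the G6pc and Pck1 differences was not tested.

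**Figure D2:**
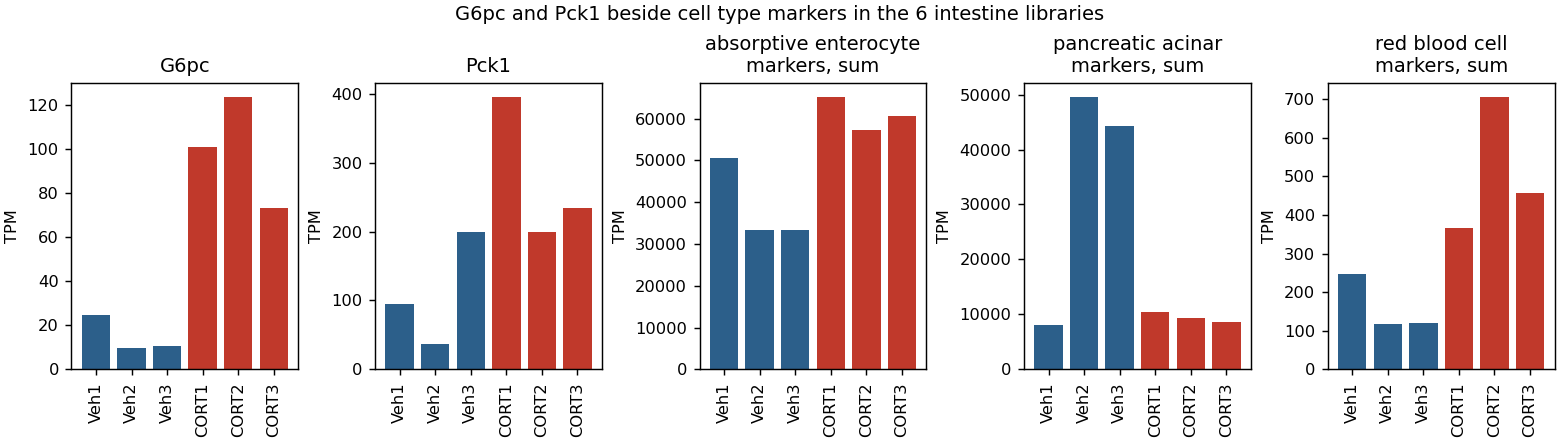
TPM of G6pc and Pck1 and the summed TPM of 3 marker lists in each intestine library (bars start at 0; blue Veh, red CORT). The acinar sum is high in Veh2 and Veh3 alone, at 49609 and 44221 TPM, whereas the enterocyte and red blood cell sums are higher in all 3 CORT libraries than in all 3 Veh libraries, as G6pc is.

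Pck1 was at 396, 200 and 235 TPM in the CORT intestines and at 94.8, 36.8 and 200 TPM in the Veh intestines. Veh3, with 199.97 TPM, lay just above the lowest CORT value of 199.67 TPM, so the groups touched, and the 2.50-fold difference in means (log2 1.56 ± 0.58 SE, 95% interval 0.19 to 2.94) had an adjusted p of 0.21 by limma. The estimate was 0.94 without Veh2, 2.14 without Veh3 and 1.47 without both (adjusted p = 0.369, 0.138 and 0.406, limma). Pck1 held 95.5% to 97.0% of the summed TPM of Pck1 and Pck2 with CORT and 77.3% to 94.0% with Veh, Pck2 itself being at 8.64 to 12.4 and 10.8 to 12.8 TPM.

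Fbp1 went the other way, at 35.3, 26.4 and 33.5 TPM with CORT and 35.8, 39.7 and 59.3 TPM with Veh. All CORT values lay below all Veh values, CORT1 and Veh1 being nearly level, and the difference did not pass (log2 -0.47, adjusted p = 0.3, limma). Fbp2, the muscle form of the same enzyme, was the more abundant in this tissue, at 251, 210 and 302 TPM with CORT and 360, 280 and 303 TPM with Veh, and Fbp1 made up 9.04% to 16.4% of the pair's TPM in the intestine. In the liver Fbp2 was at 0.09 TPM or less.

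Pklr was at 187, 148 and 189 TPM with CORT and 199, 217 and 210 TPM with Veh, again with no overlap (log2 -0.27, adjusted p = 0.353, limma). Without Veh2 and Veh3 the estimates were -0.18 for Fbp1 and -0.20 for Pklr. The 3 genes without overlap in the intestine, G6pc, Fbp1 and Pklr, are 3 of 9, beside 26.4% of all genes tested. Ldha was at 1408, 1082 and 1223 TPM with CORT and 1533, 1706 and 1349 TPM with Veh (log2 -0.31, adjusted p = 0.354, limma). Mdh1 (932, 856 and 1072 against 1117, 1034 and 1049 TPM), Pcx (39.4, 25.2 and 33.5 against 23.3, 39.3 and 33.3 TPM) and Ppargc1a (8.45, 11.2 and 7.55 against 9.88, 5.63 and 8.64 TPM) overlapped between the groups. For Pcx the 95% interval of -0.52 to 0.60 lay wholly below its liver interval. Without Veh2 and Veh3 the estimates were 0.45 for Pcx, -0.32 for Ldha, -0.23 for Mdh1, -0.04 for Pck2 and -0.13 for Ppargc1a, and none of these passed.

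**Figure D3:**
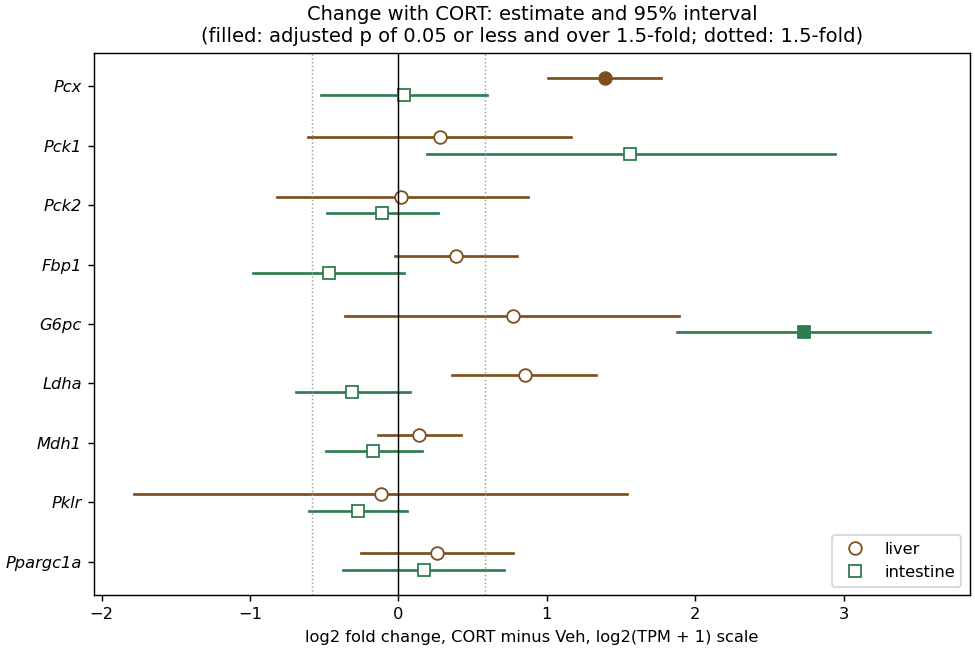
Log2 fold change of CORT against Veh for the 9 genes with its 95% interval (circles liver, squares intestine; filled symbols passed the adjusted p and the 1.5-fold limit, drawn dotted). Pcx in liver, at 1.39, and G6pc in intestine, at 2.73, are the filled points, and the widest interval is that of Pklr in liver.

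The change with CORT was then compared between the tissues in 1 limma fit of all 12 libraries. Of the 9 genes, 2 differed between liver and intestine, beside 3.61% of 14806 genes tested. For Pcx the liver change exceeded the intestine change by 1.35 on the log2 scale (95% interval 0.69 to 2.01, adjusted p = 0.0341, limma), and for Ldha, which was higher with CORT in liver and lower in intestine, by 1.15 (0.59 to 1.72, adjusted p = 0.0355). G6pc differed the other way, with -1.96 (95% interval -3.42 to -0.50), which did not pass after adjustment (0.142), and the same held for Pck1 at -1.29 (0.414) and for Fbp1 at 0.86 (0.135). Neither difference passed without the intestine Veh2 and Veh3, a fit added after the data were seen, at 0.94 for Pcx (adjusted p = 0.209) and 1.16 for Ldha (0.148, limma), where that of G6pc was -1.16 (0.529). With same-numbered libraries of both tissues as a replicate block neither passed (0.0725 and 0.0628), and under median-ratio scaling Pcx did not (0.0544). The called differences were also lost in most fits without 1 library: Pcx kept its call in 4 of 12 and Ldha in 3 of 12, although the estimates stayed between 1.18 and 1.56 and between 0.97 and 1.34. Pcx kept it without the liver CORT3 or Veh2 or the intestine CORT1 or Veh1, and Ldha without the liver CORT3 or Veh2 or the intestine CORT1.

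The tissues ranked the genes differently. Fbp1 and Pcx were higher in every liver than in every intestine, and so was Pck1, with the lowest liver at 545 TPM and the highest intestine at 396 TPM. Ppargc1a, Pck2 and Mdh1 were higher in every intestine than in every liver. The order for Ldha was intestine Veh, intestine CORT, liver CORT and liver Veh, with means of 1529, 1238, 973 and 550 TPM, in which neighbours overlapped except the liver groups. For Pklr the 4 group means ran from 174 to 211 TPM and each overlapped its neighbour in the order. The 9 genes together summed to 3677 to 4317 TPM in CORT livers, 2631 to 3644 TPM in Veh livers, 2481 to 3120 TPM in CORT intestines and 2933 to 3099 TPM in Veh intestines.

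**Figure D4:**
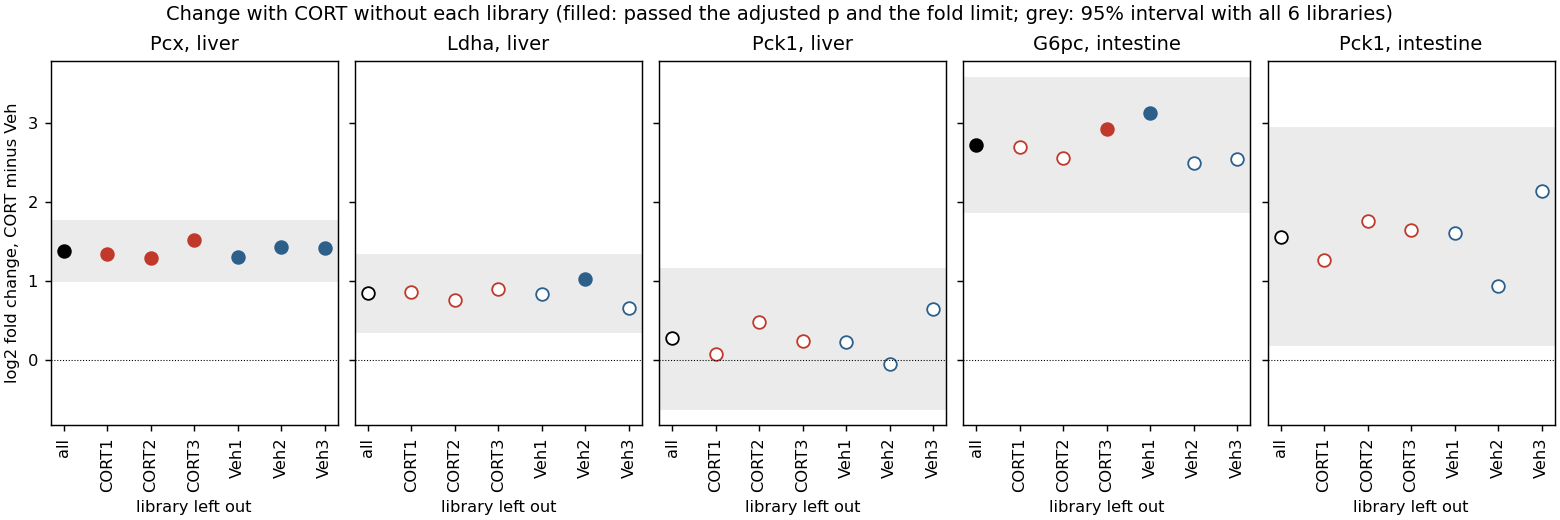
Log2 fold change of CORT against Veh with all 6 libraries of a tissue (black) and without each library in turn (red CORT, blue Veh library left out; filled where the gene was called; grey band, 95% interval with all libraries). Pcx in liver stays filled throughout, Ldha in liver is filled without Veh2 alone, and Pck1 in liver crosses 0 without Veh2.

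Genes around the 9 were taken from 4 lists. The enzymes shared with glycolysis had 16 genes here, of which 12 were tested in liver and 15 in intestine. In the liver Pgk1, phosphoglycerate kinase, was higher at 256, 287 and 252 TPM against 169, 183 and 169 TPM (adjusted p = 0.0318, limma), as 1 called gene of 12, beside 6.92% of all genes tested. In the intestine limma called 0 of 15, beside 2.15% of all genes tested. By limma's unadjusted p under 0.05 alone, a looser rule than that of the 2.15%, 3 of 15 passed. With the 1.5-fold limit as well, 1395 of all 13607 genes had such a p. The list medians were 0.33 in liver and -0.05 in intestine on the log2 scale. G6pc2, the islet form of glucose-6-phosphatase, was listed at 0 in every library.

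Glycolysis and its control had 21 genes here, with 2 of 15 tested called in liver, both higher, and 3 of 20 called in intestine, 2 higher and 1 lower, beside 6.92% and 2.15% of all genes tested. Pfkfb1 and Pfkfb2, which make and remove the fructose-2,6-bisphosphate that inhibits Fbp1, were those in liver, where they rose by 2.10-fold (adjusted p = 0.039) and 2.93-fold (adjusted p = 0.0273, limma).

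In the intestine Pdk4, a kinase that inactivates pyruvate dehydrogenase, was at 135, 124 and 77.4 TPM with CORT and at 12, 8.80 and 18.4 TPM with Veh (8.60-fold, adjusted p = 0.00809, limma). Its relative Pdk1 fell, from a mean of 8.95 to 5.23 TPM (adjusted p = 0.0436), and Pfkfb2 rose 2.19-fold (adjusted p = 0.0392, limma). The list medians were 0.35 in liver and -0.09 in intestine.

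Substrate supply had 26 genes of lactate, amino acid, glycerol and mitochondrial transport, with 1 called of 24 tested in liver and 1 of 23 in intestine, beside 6.92% and 2.15% of all genes tested. It was the same gene, Slc25a13, the aspartate and glutamate carrier citrin, at 122, 94.8 and 94.2 against 53.9, 63.9 and 62.5 TPM in liver (adjusted p = 0.0314) and at 28.5, 29.9 and 24.8 against 17.5, 16.5 and 17.8 TPM in intestine (adjusted p = 0.0493, limma). The list medians were 0.20 and -0.06, beside 0.08 and -0.01 over all genes tested.

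Transcriptional and signalling regulators had 42 genes, with 6 called of 39 in liver, 4 higher and 2 lower, and 5 called of 38 in intestine, 4 higher and 1 lower, beside 6.92% and 2.15% of all genes tested. Of the 4 called higher in liver, 3 are activators of the pathway's genes, and the other is the clock gene Cry1, given below. Hnf4a, a nuclear receptor of hepatocytes, was at 279, 233 and 316 against 145, 161 and 144 TPM (adjusted p = 0.0211, limma). Creb3l3, a CREB-like factor of liver and gut, was at 318, 300 and 229 against 134, 156 and 139 TPM (adjusted p = 0.0192). Foxo1, the forkhead factor that insulin signalling removes from the nucleus, was at 10.1, 6.59 and 9.57 against 3.23, 4.17 and 4.64 TPM (adjusted p = 0.0357, limma). These 3 factors are named because they were called, so their lack of overlap adds nothing to the call. Of the 39 regulators tested in liver 16 did not overlap, beside 32.2% of all genes tested. Cebpb, on the same list, was lower in every CORT liver (log2 -0.48, adjusted p = 0.19, limma). Ppargc1a, a coactivator of these factors, overlapped between the liver groups.

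The regulators called in both tissues were the clock genes Nr1d1 and Cry1. Nr1d1, the repressor REV-ERBalpha, fell from a mean of 46.5 to 11.4 TPM in liver (adjusted p = 0.00907) and from 63.3 to 13.9 TPM in intestine (adjusted p = 0.0189, limma). Cry1, a cryptochrome, rose 4.84-fold in liver (adjusted p = 0.0113) and 2.33-fold in intestine (adjusted p = 0.0392), and Cry2 rose 2.10-fold in intestine (adjusted p = 0.031, limma). Srebf1, the lipogenic factor SREBP1, fell in liver from a mean of 96.4 to 28.5 TPM (adjusted p = 0.0339). In intestine Ppara, the fatty acid sensor, rose 2.43-fold (adjusted p = 0.0329) and Nr0b2, the corepressor SHP, rose 2.72-fold (adjusted p = 0.0253, limma).

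None of the 9 list genes called in intestine passed without Veh2 and Veh3, a fit added for the lists after the data were seen: each kept its sign, Pdk4 at 3.08 (adjusted p = 0.132) and Nr1d1 at -2.49 (adjusted p = 0.203, limma).

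Other named regulators did not pass. Nr3c1, the glucocorticoid receptor itself, was at 8.98, 7.63 and 11.4 against 8.67, 10.8 and 8.58 TPM in liver and at 9.20, 21.0 and 17.6 against 18.2, 14.9 and 16.2 TPM in intestine. Klf15, a glucocorticoid-responsive factor of amino acid catabolism, had log2 fold changes of 0.04 in liver and 0.70 in intestine (adjusted p = 0.946 and 0.343). Mlxipl, the carbohydrate-responsive factor ChREBP that acts on Pklr, was lower in every CORT liver, at 42.9, 31.1 and 41.3 against 61.3, 57.1 and 52.4 TPM (log2 -0.57, adjusted p = 0.0784, limma).

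**Figure D5:**
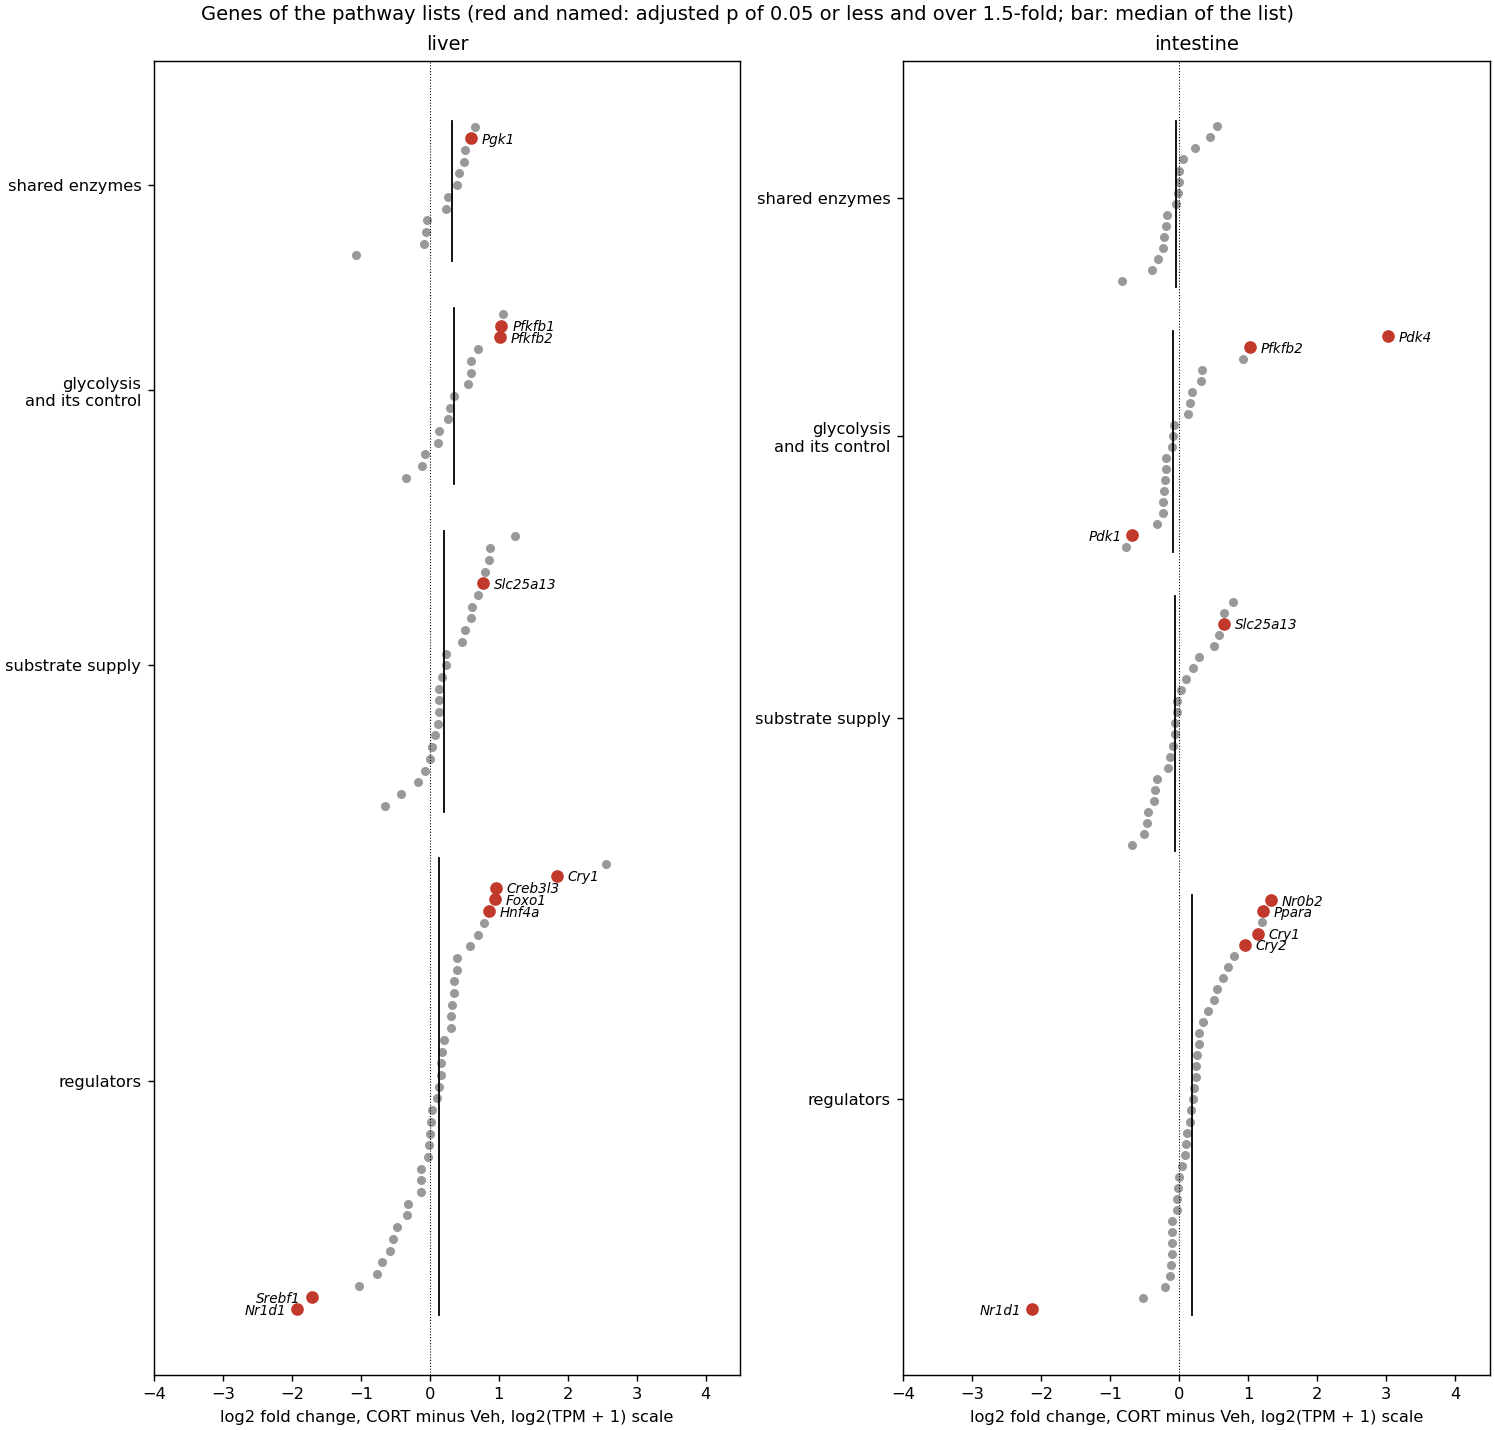
Log2 fold change of every tested gene of the 4 lists, ordered within each list (red and named, called; grey, not called; black bar, median of the list). The medians of the liver lists lie at 0.33, 0.35, 0.20 and 0.13 from top to bottom, and those of the intestine at -0.05, -0.09, -0.06 and 0.19.

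The genes whose pattern was most like that of Pck1 and G6pc were found by Pearson's r over all 12 libraries, each tissue centred on its own mean, among 10500 genes tested in both tissues. The libraries share their treatment, so these values describe the pattern and are given without a p. For Pck1 they were Klf15 (r = 0.921), Angptl4 (0.87), a lipoprotein lipase inhibitor, and Rasd1 (0.847), a dexamethasone-induced small GTPase. Their r was lower within liver alone, at 0.765, 0.66 and 0.465, than within intestine, at 0.963, 0.916 and 0.92. For G6pc they were the noncoding RNA Snhg16 (0.944) and the haemoglobin genes Hba-a2 (0.93) and Hbb-bs (0.919). Within liver these were at 0.84, 0.768 and 0.766, and within intestine at 0.97, 0.97 and 0.96. Hba-a2 was at 163, 299 and 196 TPM in the CORT intestines and at 106, 50.1 and 49.4 TPM in the Veh intestines, so that CORT2 was the highest library and Veh1 the highest Veh library for both genes.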

How the data were processed

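RNA of liver and duodenum (3 CORT and 3 Veh libraries per tissue) was sequenced as paired ends. The authors used SeqPrep and Sickle for trimming, HISAT2 for alignment, and StringTie and RSEM for quantification, on GRCm39 per the submitters' processing notes; versions and annotation are not given in the sources used here. TPM were deposited for each gene in every single library, so depth and counting error are unknown. The authors called DEGs with DESeq2 from counts, which were not used here.

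Groups came from the sample labels. Genes whose mean reached 1 TPM in the CORT or the Veh group were fitted as log2(TPM + 1) with limma 3.58.1 in R 4.3.3 (trend in the prior spread), per tissue, and once over both tissues with an interaction of treatment and tissue, with Benjamini-Hochberg adjustment over all genes. A call needed an adjusted p of 0.05 or less and, within a tissue, a fold change over 1.5. On simulated data, 170 of 200 liver genes changed by 2 (log2) were recovered among 11699 and 174 of 200 intestine genes among 13607, with 5 and 12 false calls. That change is larger than every estimate of the 9 genes but that of G6pc in intestine, so recovery of smaller changes was not measured. Alternatives were a pseudocount of 0.1, no filter, a replicate block, leaving out libraries, median-ratio scaling, no fold limit, unadjusted p, and removal of the acinar genes. The 9 genes and the lists were chosen with earlier results of these data known. From the lists, every called gene (at most 8 per list and tissue), 7 fixed regulators and partners, Fkbp5, and the 3 genes most like Pck1 and G6pc were named; G6pc2, Fbp2 and single markers were named after their values were seen. Some genes of the lists are not reported here. Aldoa, listed under 2 identifiers, was read from its first.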

Additional observations from a re-analysis of the deposited data

Results flagged for a closer look

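The change with CORT differed between liver and intestine, by limma's treatment by tissue term, for 2 of the 9 genes: the liver change was larger by 1.35 (log2) for Pcx and by 1.15 for Ldha (adjusted p = 0.0341 and 0.0355). Neither passed with the replicate block (0.0725 and 0.0628) or without the intestine Veh2 and Veh3 (0.209 and 0.148), and Pcx did not under median-ratio scaling (0.0544). Of the 102 genes of the 4 lists tested here, 3 also differed, beside 3.61% of all genes tested. For Hnf4a the liver change was larger by 1.08 (adjusted p = 0.00886), from log2 fold changes of 0.86 in liver and -0.21 in intestine. For Pdk4 the difference was -1.97 (adjusted p = 0.0416), from 1.06 in liver and 3.03 in intestine. For Srebf1 it was -2.91 (adjusted p = 0.00908), from -1.71 in liver, where it was called, and 1.20 in intestine, where it was not (adjusted p = 0.0827). With the block Srebf1 alone of these 3 passed (adjusted p = 0.0333, against 0.069 for Hnf4a and 0.0964 for Pdk4). Without the intestine Veh2 and Veh3 Hnf4a alone passed (0.0387, against 0.0876 for Srebf1 and 0.112 for Pdk4), and with a pseudocount of 0.1 Pdk4 did not (0.268).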

How the results depend on the processing

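Pcx in liver was called under every alternative run. Over all genes, 1010 of 11699 were called in liver under median-ratio scaling. By limma's unadjusted p under 0.05 with the 1.5-fold limit, 1808 of 11699 genes passed in liver and 1395 of 13607 in intestine. The count of called members in liver was 2 under median-ratio scaling and by an unadjusted p under 0.05, and 1 to 2 without 1 library. In intestine it was 0 without the filter, with the replicate block and without Veh2 and Veh3, 2 by an unadjusted p, and 0 to 1 without 1 library. The G6pc log2 fold change in intestine was 2.73 without the filter (adjusted p = 0.0681) and 2.73 with the block (0.0541), 1.93 without Veh2 and Veh3, and 2.5 to 3.13 without 1 library. Members differing between tissues numbered 0 with the block, 1 under median-ratio scaling, 0 without the intestine Veh2 and Veh3 (added after the data were seen) and 0 to 3 without 1 library. The Pcx difference was 1.35 with the block (0.0725), 1.25 under median-ratio scaling (0.0544), 0.94 without Veh2 and Veh3 (0.209) and 1.18 to 1.56 without 1 library, and that of Ldha 1.15 with the block (0.0628), 1.16 without Veh2 and Veh3 (0.148) and 0.97 to 1.34 without 1 library; the G6pc difference passed without the liver Veh2 (-2.5, adjusted p = 0.0332). Fits with fewer libraries also have fewer samples, and the cause of any of these losses was not tested.

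Signs that turned belonged to genes that were not called. Without 1 library the liver log2 fold change ran from -0.05 to 0.65 for Pck1, from -0.31 to 0.44 for Pck2 and from -0.76 to 0.62 for Pklr. In intestine it ran from -0.17 to 0.21 for Pcx, from -0.04 to 0.32 for Ppargc1a and from -0.21 to 0.03 for Pck2. Pck2 in liver was at -0.03 under median-ratio scaling, and Ppargc1a in intestine at -0.13 without Veh2 and Veh3.

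Over all genes, the deviations of same-numbered libraries from their group means correlated at -0.13 to 0.10. No source says that a number marks a shared mouse, so the fit without the block was kept. Within a tissue CORT and Veh were different mice, so a number there could not mark a shared mouse. Whether it marks a batch there, or pairs a liver with a duodenum, is not known. With the block the Pck1 difference between tissues had an unadjusted p of 0.0026 (adjusted 0.0896), against 0.122 (0.414). Over all genes, the calls were 810 in liver, 283 without the filter and 307 with the block. In intestine they were 292, with 52 without the filter, 62 with the block and 10 without Veh2 and Veh3. Of the tissue differences there were 534, with 210 with the block and 301 without Veh2 and Veh3. With the block, called list genes fell in liver to 0 for glycolysis, 0 for substrate supply and 3 for regulators, and in intestine to 0, 0 and 2; glycolysis in liver numbered 1 under median-ratio scaling, shared enzymes in liver numbered 2 with a pseudocount of 0.1, and substrate supply in intestine 0 under median-ratio scaling. Depth being unknown, no limit for low genes such as Ppargc1a in liver can be given.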

Other observations

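Among the Veh libraries, Veh3 was the highest of its group in both tissues for several known glucocorticoid targets, a pattern noticed after the values were seen. In liver Veh3 held 68.0 TPM of Tsc22d3 (GILZ, a glucocorticoid-induced leucine zipper protein) against 31.3 and 18.4 TPM in Veh1 and Veh2, 8.80 TPM of Per1 (a period clock gene) against 2.75 and 3.34 TPM, and 97.5 TPM of Angptl4 against 34.5 and 36.3 TPM. In intestine it held 46.0 TPM of Tsc22d3 against 31.2 and 31.0 TPM, 14.1 TPM of Per1 against 4.94 and 5.94 TPM, and 20.5 TPM of Angptl4 against 4.37 and 3.24 TPM. Pck1 had its highest Veh value in the Veh3 library of each tissue, 1448 and 200 TPM, and no label pairs these libraries by mouse. Fkbp5 was also highest in Veh3, at 19.5 TPM in liver and 23.3 TPM in intestine, far below any CORT library. Other genes did not share the pattern. G6pc in intestine was highest in Veh1, at 24.8 TPM against 10.6 TPM in Veh3. Pdk4 in liver was highest in Veh2, at 1.93 TPM against 0.59 TPM in Veh3. Lpin1 in intestine was lowest in Veh3, at 1.42 TPM.

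A few genes outside the 9 did not overlap between the liver groups and did not pass. Lack of overlap was common: 32.2% of all genes tested in liver, 6 of 24 for substrate supply and 16 of 39 regulators. Sds, the serine dehydratase that feeds pyruvate, was at 449, 275 and 764 TPM with CORT and at 113, 269 and 239 TPM with Veh (log2 1.23, adjusted p = 0.143, limma). Gpt2, the mitochondrial alanine aminotransferase, was at 279, 269 and 189 TPM with CORT and at 108, 130 and 167 TPM with Veh (adjusted p = 0.0613). For both, the lowest CORT value lay close to the highest Veh value. The other aminotransferases of the same list, Gpt, Got2 and Got1, had estimates of 0.03, 0.23 and 0.60 on the log2 scale. Those of the dehydrogenases Glud1, Gpd1 and Gpd2 were 0.23, 0.13 and 0.61, and none of these genes was called. Lpin1, a phosphatidate phosphatase and coactivator of PGC-1alpha, was at 180, 88.1 and 112 TPM with CORT and at 10.3, 12.6 and 58.3 TPM with Veh (log2 2.55, adjusted p = 0.0565, limma), with Veh3 again the highest of its group. These genes were named after their values were seen.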
